A study of Mus musculus with 13 samples.

Results

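In all, 10 forkhead genes in 5 stretches of the mouse genome were examined for H3K27me3 in fibroblasts that carried a mutant histone H3. The genes were Foxf1, Foxc2 and Foxl1 on chromosome 8, Foxq1, Foxf2 and Foxc1 on chromosome 13, Foxd1 elsewhere on chromosome 13, and Foxd2 with Foxe3, and Foxd3, on chromosome 4. They were chosen by position, as every H3K27me3 peak that overlapped one of 5 windows on the mm9 build. The windows ran from 123.55 to 123.72 Mb on chromosome 8, from 31.6 to 31.95 Mb and from 99.08 to 99.17 Mb on chromosome 13, and from 114.55 to 114.63 Mb and from 99.28 to 99.37 Mb on chromosome 4. They held 5 of the 1053 peaks of the H3.1K27M list and 8 of the 1192 peaks of the H3.3K27M list. Peaks of both lists that overlapped were joined, which gave 8 regions in the windows out of 1383 in all.

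The cells were mouse embryonic fibroblasts transduced with lentivirus for stable expression of a histone H3 in which methionine replaces lysine 27, either on H3.1, the replication-coupled form (H3.1K27M), or on H3.3, the form deposited at any time in the cell cycle (H3.3K27M). After formaldehyde fixation, micrococcal nuclease released single nucleosomes, and those with trimethylated lysine 27 were precipitated with an H3K27me3 antibody. Each mutant had 2 H3K27me3 samples but only 1 peak list was used per mutant, so no value below has a replicate error and no test between the mutants was possible. Strain, embryonic age and clonal origin of the cells, the promoter that drove the mutant histones and the depth of the libraries are unknown here, and control cells and cells with lysine 27 changed to arginine were not analysed here. Transcripts were not measured, so the fibroblast label could not be set against marker genes. Since depth and threshold both bear on how many peaks are found and how far each reaches, presence and width are given as features of these lists and not as amounts of the mark.

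H3K27me3 is placed by Polycomb repressive complex 2, which is recruited to CpG-rich promoters of developmental regulators and spreads the mark outward by binding its own product. Histone H3 with methionine at position 27 inhibits the complex. Forkhead genes encode transcription factors that share a winged-helix DNA-binding domain, and several sit in small clusters left by ancient duplications: the cluster of Foxf1, Foxc2 and Foxl1 is the counterpart of the cluster of Foxq1, Foxf2 and Foxc1. Foxf1 and Foxf2 act in the mesenchyme of lung and gut, Foxl1 in gut mesenchyme, and Foxc1 and Foxc2 in somites, vessels and the eye. Foxq1 is needed for normal hair structure, Foxd1 marks the stroma of the developing kidney, Foxd3 acts in the neural crest and in pluripotent cells of the early embryo, and Foxe3 acts in the lens. Many of these genes are textbook Polycomb targets in cells that do not use them.

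CpG content is shown here because it is the sequence property linked to Polycomb recruitment, and the rule that chose the genes did not use it. RefSeq promoters on GRCm38.p6 were matched for 6 of the 10 genes by symbol: Foxf2, Foxc1, Foxd1, Foxd2, Foxe3 and Foxd3. Foxf1, Foxc2, Foxl1 and Foxq1 had no entry. The 250 bases before the start site are printed below for 4 of the 6, read 5′ to 3′ on the gene's strand with each CpG in capitals. Foxd1 is shown as the gene whose window had an H3.3K27M peak alone, Foxd3 as the other window with a single gene, Foxc1 for the most CpGs and Foxe3 for the fewest. Their coordinates are on GRCm38.p6 and cannot be compared directly with the mm9 positions of the peaks.
Foxd1 (chr13:98353995-98354244, plus strand): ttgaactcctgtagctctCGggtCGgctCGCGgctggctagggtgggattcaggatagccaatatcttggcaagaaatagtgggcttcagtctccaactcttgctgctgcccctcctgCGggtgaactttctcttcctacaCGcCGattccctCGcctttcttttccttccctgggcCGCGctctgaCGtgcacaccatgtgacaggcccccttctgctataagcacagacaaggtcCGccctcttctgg
Foxd3 (chr4:99656049-99656298, plus strand): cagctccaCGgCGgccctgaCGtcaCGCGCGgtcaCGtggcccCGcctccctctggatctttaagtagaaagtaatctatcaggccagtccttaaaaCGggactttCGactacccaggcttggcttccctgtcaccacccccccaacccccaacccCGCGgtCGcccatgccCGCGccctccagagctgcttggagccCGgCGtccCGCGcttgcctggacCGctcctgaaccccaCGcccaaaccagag
Foxc1 (chr13:31806396-31806645, plus strand): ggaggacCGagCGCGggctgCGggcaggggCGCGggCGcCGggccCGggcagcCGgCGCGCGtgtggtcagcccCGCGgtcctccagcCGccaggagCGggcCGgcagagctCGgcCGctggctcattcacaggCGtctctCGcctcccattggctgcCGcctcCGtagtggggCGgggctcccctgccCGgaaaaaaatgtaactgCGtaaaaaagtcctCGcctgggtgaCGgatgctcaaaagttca
Foxe3 (chr4:114926068-114926317, minus strand): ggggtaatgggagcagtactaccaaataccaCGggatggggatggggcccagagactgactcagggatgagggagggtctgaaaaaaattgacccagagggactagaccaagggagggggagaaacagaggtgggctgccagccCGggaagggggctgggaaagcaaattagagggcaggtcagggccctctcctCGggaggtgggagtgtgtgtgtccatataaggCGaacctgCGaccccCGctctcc

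CpG density varied widely among these promoters. The ratio of observed CpGs to those expected from the C and G content was 0.93 at Foxc1, which had 29 CpGs in the 250 bases and 70.8% GC. It was 0.85 at Foxd3, with 21 CpGs, and 0.72 at Foxf2, also with 21. Foxd2 had a ratio of 0.62 and 16 CpGs. These 4 lay above 0.6, a usual threshold for a CpG island, and 34% of 32841 mouse promoters did so. Foxd1 fell just short of it, with 0.5998 and 12 CpGs. Foxe3 stood apart with 6 CpGs and a ratio of 0.29, which is below the median of 0.37 over all promoters. Bases after the start site were not counted, so these ratios do not show whether a gene has a CpG island. In the printed sequences, 20 of the 29 CpGs of Foxc1 lie in the 125 bases farther from the start site, while 5 of the 6 of Foxe3 lie in the 125 bases next to it. The 27 other forkhead promoters in the table had a median ratio of 0.70, against 0.67 for the 6 described here. The forkhead motif GTAAACA, searched on both strands, was in none of the 6 promoters and in 3.17% of all promoters. This says only that these letters are not in these 250 bases.

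**Figure D1:**
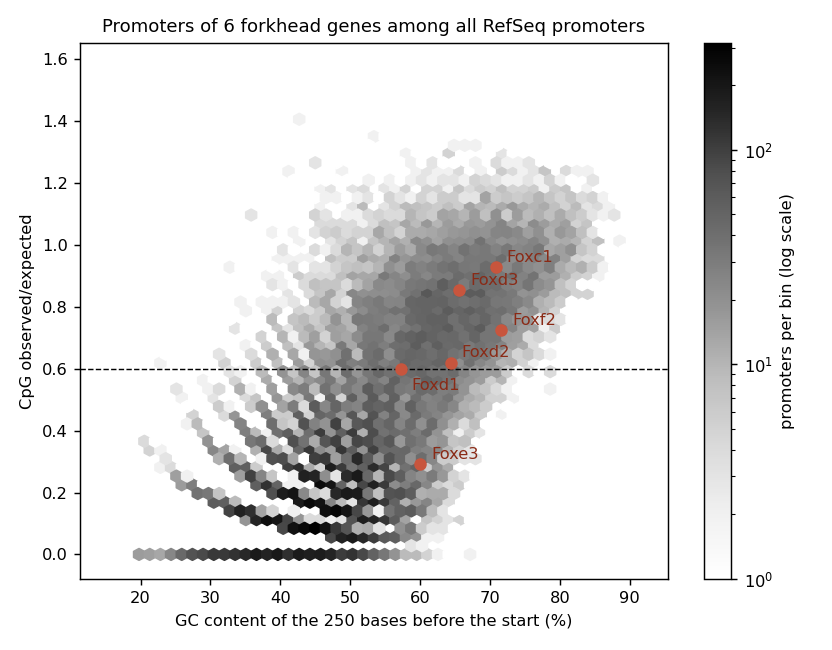
Promoters of 6 forkhead genes among all RefSeq promoters. Each grey hexagon counts promoters by GC content (x axis, %) and CpG observed/expected ratio (y axis) over the 250 bases before the start, red points are the 6 genes and the dashed line marks 0.6; Foxc1 is highest at 0.93 and Foxe3 lowest at 0.29.

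H3K27me3 peaks were present in 4 of the 5 windows in H3.1K27M cells and in all 5 in H3.3K27M cells. The windows were chosen with earlier results of these data known, so these counts describe the choice. Peaks at other forkhead genes were not counted. The cluster windows of Foxf1, Foxc2 and Foxl1 and of Foxq1, Foxf2 and Foxc1 each had 1 H3.1K27M peak and 2 H3.3K27M peaks. The window of Foxd2 and Foxe3 had 2 peaks in each list, and the Foxd3 window 1 in each. The Foxd1 window had no H3.1K27M peak and 1 H3.3K27M peak. All 13 peaks lay wholly inside their windows.

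**Figure D2:**
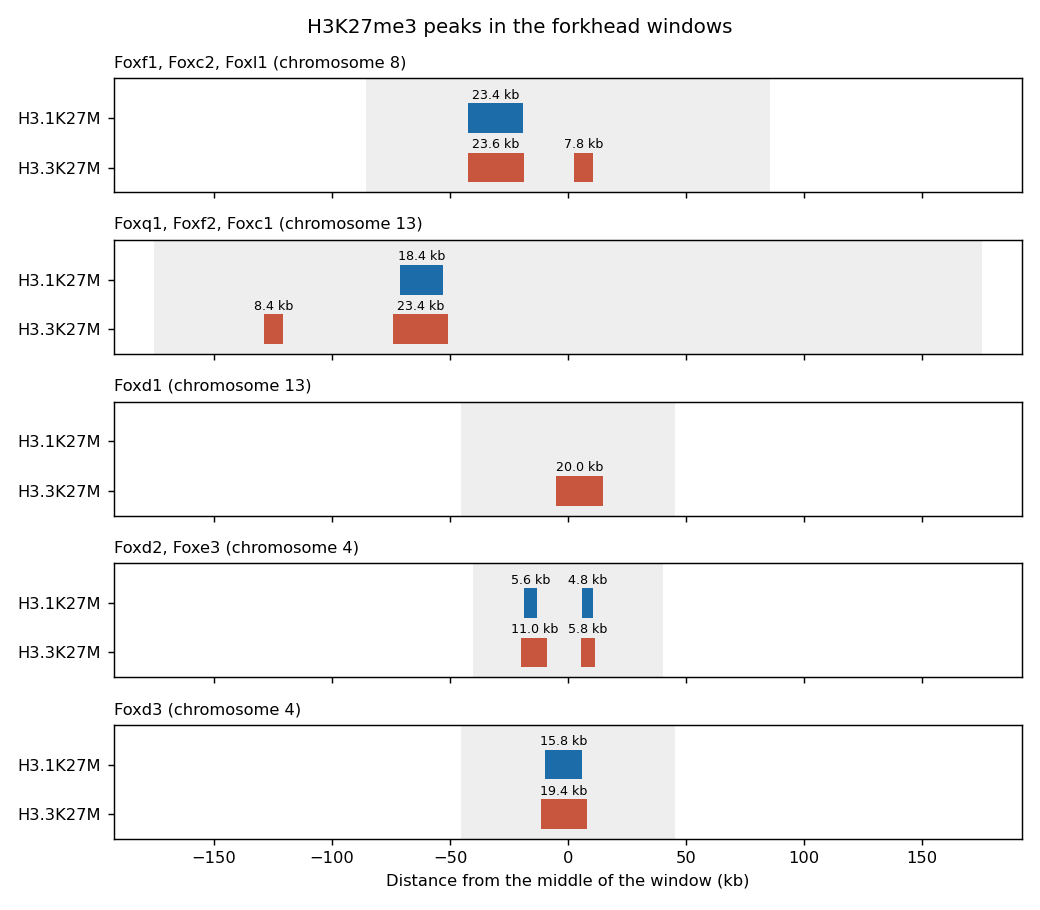
H3K27me3 peaks in the forkhead windows, drawn to scale. Each panel is a window (grey), the x axis is the distance from its middle in kb, and bars are peaks of the H3.1K27M list (blue, upper row) and the H3.3K27M list (red, lower row) labelled with their width; every blue bar sits above a red one, and 3 red bars have no blue one above them.

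Where both mutants had a peak, the H3.1K27M peak lay wholly inside the H3.3K27M peak. This held in 5 of 5 regions, and in 71.7% of the 807 regions of the whole lists that had exactly 1 peak of each. All 5 H3.1K27M peaks thus had a partner in the other list (100%, exact 95% binomial interval 47.8 to 100%), against 81.2% of the whole H3.1K27M list. Of the 8 H3.3K27M peaks, 5 had a partner (62.5%, interval 24.5 to 91.5%), against 70.3% of the whole H3.3K27M list. Both intervals, which cover counting error only, include the share of the whole list. Without the Foxd1 window the H3.3K27M share was 5 of 7, or 71.4%, near the share of the whole list. With so few peaks, the side of that share on which the windows fall is not read as a result. The 3 remaining regions, 1 each at Foxd1 and at the 2 clusters, were in the H3.3K27M list only, a class that made up 25.6% of all regions. No region of the windows was in the H3.1K27M list only, while 14.3% of all regions were. This restates that all 5 H3.1K27M peaks had a partner. With 8 regions in the windows, neither contrast is read as a trait of the forkhead genes.

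By length, the H3.1K27M peaks covered 68.0 kb of the windows and the H3.3K27M peaks 119 kb, which is 1.76 times as much. The windows span 780 kb, so these lengths are 8.72% and 15.3% of them. The H3.1K27M peaks lay inside H3.3K27M peaks over their whole length (100%), while 57.0% of the H3.3K27M length lay inside H3.1K27M peaks. The H3.3K27M list covered 1.36 times the length of the H3.1K27M list genome-wide. Without the Foxd1 window, the ratio in the forkhead windows was 1.46.

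**Figure D3:**
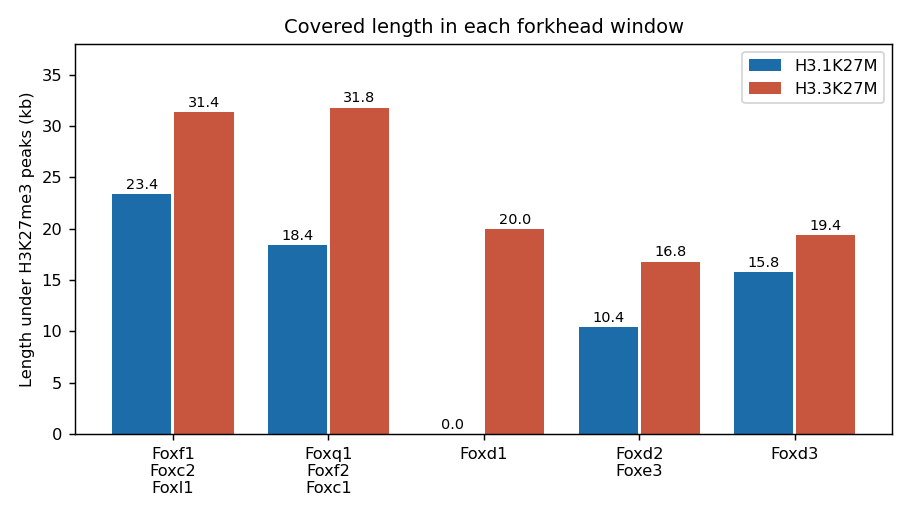
Length under H3K27me3 peaks (y axis, kb) in each forkhead window for the H3.1K27M list (blue) and the H3.3K27M list (red), 1 list per mutant and so no error bars. The red bar is the taller in each window, by 31.4 against 23.4 kb at Foxf1, Foxc2 and Foxl1, and at Foxd1 there is no blue bar.

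At the cluster of Foxf1, Foxc2 and Foxl1 the domain shared by both mutants had nearly the same edges in each. It ran from 123592601 to 123615999 on chromosome 8 in H3.1K27M cells (23399 bp) and from 123592601 to 123616199 in H3.3K27M cells (23599 bp). The left edges were the same and the right edges differed by 200 bp, the step of the grid on which peaks start. Only 10 of the 807 single-peak regions had a higher ratio of common to combined length than the 99.2% seen here. In both lists it was among the widest peaks, with 93.8% of H3.1K27M peaks and 92.3% of H3.3K27M peaks narrower. In H3.3K27M cells a second peak of 7799 bp followed, from 123637601 to 123645399, after a gap of 21.4 kb. No H3.1K27M peak lay within 21.6 kb of it.

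At the cluster of Foxq1, Foxf2 and Foxc1 the shared domain was wider in H3.3K27M cells at both edges. It ran from 31703801 to 31722199 on chromosome 13 in H3.1K27M cells (18399 bp) and from 31700801 to 31724199 in H3.3K27M cells (23399 bp), 1.27 times as wide. The H3.3K27M peak reached 3000 bp further at the left edge and 2000 bp further at the right. A peak of 8399 bp from 31646001 to 31654399 was in the H3.3K27M list alone. It lay 46.4 kb from the shared domain in that list and 49.4 kb from the H3.1K27M peak. From 31724200 to the end of the window, 226 kb, neither list had a peak.

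The windows of the 2 clusters thus held the same kinds of region in these lists. Each had 1 broad shared domain, of 23.6 and 23.4 kb in H3.3K27M cells, and 1 narrower region, of 7.8 and 8.4 kb, in the H3.3K27M list alone. The narrower region lay on the higher-coordinate side of the broad one on chromosome 8 and on the lower-coordinate side on chromosome 13. Of the 354 regions in the H3.3K27M list alone, 79.4% were narrower than the one on chromosome 8 and 83.1% were narrower than the one on chromosome 13. In the GRCm38.p6 RefSeq gene table the order along the chromosome is Foxf1, Mthfsd, Foxc2 and Foxl1 on chromosome 8 and Foxq1, Foxf2 and Foxc1 on chromosome 13. Gene positions on mm9 were not used here, so peaks were not assigned to genes. On GRCm38.p6 the bases before the start end at 31625815 for Foxf2 and at 31806645 for Foxc1. These lie farther apart than the window start, 31.6 Mb, and the end of the shared domain, 31724199. If order and spacing are the same on mm9 and the window holds both genes, Foxc1 starts in the 226 kb without a peak. Which other genes of a cluster lie under a peak, if any, was not determined. Whether the matching regions of the 2 clusters lie on counterpart genes was not determined either.

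Among the windows, Foxd1 had the largest difference in covered length between the lists. Its window held 1 H3.3K27M peak of 19999 bp, from 99120001 to 99139999 on chromosome 13, and no H3.1K27M peak. The nearest H3.1K27M peak was 1528 kb away, and the list had none over 3763 kb, from 96905600 to 100668200. The same stretch held 2 H3.3K27M peaks, the one at Foxd1 and a peak of 4799 bp from 97839201 to 97843999. The Foxd1 peak ranked the fifth in width among the 354 regions in the H3.3K27M list alone. Of the 132 H3.3K27M peaks at least as wide, itself included, 127 (96.2%) had an H3.1K27M partner. Each list numbers its peaks along the genome and skips some numbers, and what a skipped number stands for is unknown. The H3.1K27M numbers were consecutive at this place and opposite the 2 narrower cluster peaks. Why the H3.1K27M list has no peak there was not tested. The neighbouring genes in the RefSeq table are Btf3 and Tmem174.

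Foxd3, the other gene with a window to itself, had a broad domain in both mutants. It ran from 99315201 to 99330999 on chromosome 4 in H3.1K27M cells (15799 bp) and from 99313601 to 99332999 in H3.3K27M cells (19399 bp), a ratio of 1.23. The H3.3K27M peak reached further by 1600 bp at the left edge and 2000 bp at the right. Foxd1 and Foxd3 thus had peaks of similar width in the H3.3K27M list, wider than 88.9% and 88.0% of it, while only the Foxd3 window had a peak in the H3.1K27M list.

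At Foxd2 and Foxe3 both lists had 2 separate peaks. Each was narrower than the widest peak of the same list in every other window that had one. The first ran from 114571401 to 114576999 on chromosome 4 in H3.1K27M cells (5599 bp) and from 114570201 to 114581199 in H3.3K27M cells (10999 bp). At 1.96 times, this was the largest width ratio among the 5 shared forkhead regions, and 86.5% of the 807 single-peak regions had a lower one. The extension was uneven, with 1200 bp at the left edge and 4200 bp at the right, toward the second peak. The second ran from 114595801 to 114600599 in H3.1K27M cells (4799 bp) and from 114595401 to 114601199 in H3.3K27M cells (5799 bp), a ratio of 1.21. The peaks stood 18.8 kb apart in the H3.1K27M list and 14.2 kb apart in the H3.3K27M list. Foxd2 precedes Foxe3 along the chromosome in the RefSeq table, with no other protein-coding gene between them, and the peaks were not assigned to either gene.

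Over the 5 shared forkhead regions the H3.3K27M peak was the wider in 5 of 5, against 77.7% of the 807 single-peak regions. It passed both edges of the H3.1K27M peak in 4 of 5, against 61.3%, and the fifth, at Foxf1, Foxc2 and Foxl1, had an edge in common, as did 15.2% of single-peak regions. On the log2 scale the width ratios (H3.3K27M over H3.1K27M) ran from 0.01 to 0.97 with a median of 0.30, against a median of 0.33 over all single-peak regions. In H3.1K27M cells 3 of the 5 forkhead peaks were wider than the median of all single-peak regions, 6199 bp, and both peaks at Foxd2 and Foxe3 were narrower. In H3.3K27M cells 4 of 5 were wider than the corresponding median of 8199 bp, and the second peak at Foxd2 and Foxe3 was narrower.

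**Figure D4:**
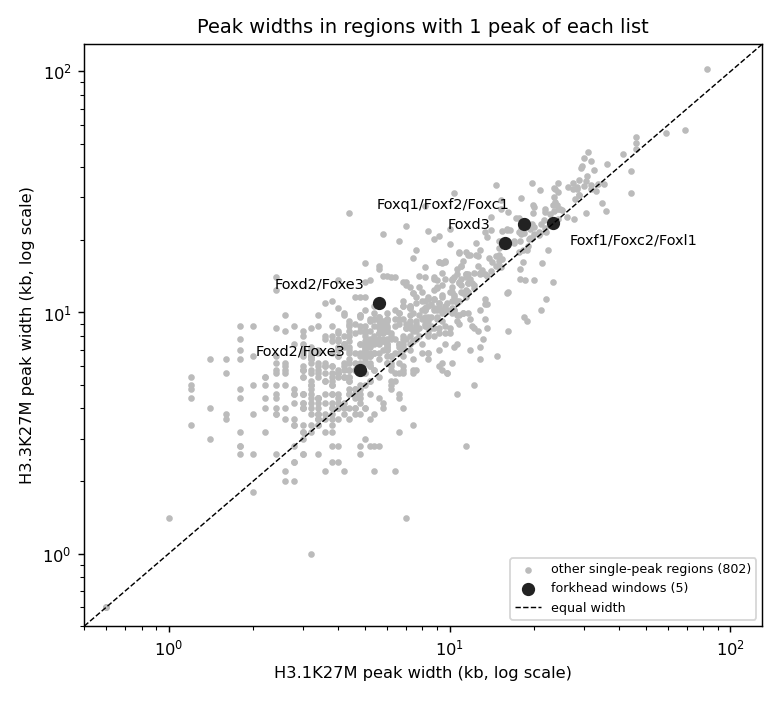
Peak width in H3.1K27M cells (x axis) and H3.3K27M cells (y axis), both in kb on log scales, in regions with 1 peak of each list. Black points are the 5 shared forkhead regions, grey points the other 802, and the dashed line marks equal width; the black points lie on or above the line, from a ratio of 1.01 at Foxf1, Foxc2 and Foxl1 to 1.96 at the first Foxd2 and Foxe3 region.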

How the data were processed

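H3K27me3 peaks were analysed for H3.1K27M and H3.3K27M fibroblasts. The submitters' processing notes name Bowtie 1.0.0, deepTools and the mm9 build. Not given in the sources used here are the peak caller with its threshold, any input correction, and whether replicates were pooled. The authors deposited 1 list per mutant with the position and width in bp of each peak, and no height, fold or p-value. All 2245 starts lie on a 200 bp grid.

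Windows were taken in Mb from the rule that defines the genes, and the members and lists were chosen with earlier results of these data known. Positions are printed with the first base as 1. Peaks overlapping by at least 1 bp were counted as shared, and overlapping peaks were joined into regions. Shares carry exact (Clopper-Pearson) 95% intervals. With 1 list per mutant there was no test. The genes named are the 10 in the windows and their neighbours in the RefSeq gene table, in which all 10 were found. Promoter sequences came from RefSeq on GRCm38.p6, and 10 promoters with unread bases were left out. Alternatives varied the overlap, merging, peak width, windows and promoter background. Python 3.11.15 was used with numpy 2.4.6, pandas 2.3.3, scipy 1.17.1, networkx 3.6.1 and matplotlib 3.10.9. The joining of peaks was run on simulated lists, where 800 of 800 shared regions were recovered. Simulated sites were too far apart to touch and shared peaks had a common centre. The run therefore checks the code and not the joining of crowded or offset peaks.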

Additional observations from a re-analysis of the deposited data

How the results depend on the processing

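No paired analysis was possible because there is 1 list per mutant, which also leaves no replicate to drop. Restricting each list to peaks no narrower than its median moved the log2 ratio of covered length over all windows from 0.81 to 0.85, and at Foxd2 and Foxe3 from 0.69 to 0.97, since the second peak of both lists there is narrower and drops out. Leaving out the Foxd1 window, chosen after seeing the data, brought the log2 ratio over all windows to 0.55. It took the share of H3.3K27M peaks with a partner from 62.5% to 71.4%, near the 70.3% of the whole list. With the 33 forkhead promoters in place of all promoters as background, the median share of promoters with a lower CpG ratio went from 71.2% to 47%. The share with a partner is among 25 values over all windows that stayed within 1.5 times the main count, the interval of the share, 1 SD over regions or the grid step of the peak edges, as did 29 values of single windows or regions. The settings included a reciprocal overlap of 50%, merging of peaks under 5 kb apart, windows widened by 50 kb, which gave 6 and 9 peaks, and, added after seeing the data, lists of equal size made from the widest H3.3K27M peaks. Several settings could not move the values, so these counts do not measure robustness. All 13 peaks lay inside their windows, at least 14.2 kb apart, and shared pairs overlapped by 50.9% or more. The narrowest H3.3K27M peak ranked 736 in width, within the 1053 kept for equal size. Without the depth of the libraries, a peak missing from a list, such as the H3.1K27M peak at Foxd1, cannot be read as absence of the mark.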

Other observations

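The domain at Foxd3 borders the longest stretch without a peak in either list. It ran from 66066600 to 99313600 on chromosome 4, over 33.2 Mb, and the running numbers of both lists were consecutive across it. The next longest, on chromosome 16 from 38905200 to 72028400, was nearly as long at 33.1 Mb, and the median of the 1363 stretches between neighbouring regions was 592 kb.

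The windows differed in how crowded their surroundings were. The peaks of Foxd2 and Foxe3 had shared peaks on both sides, 32.4 kb before and 94.0 kb after the window in H3.1K27M cells, and 32.2 and 91.2 kb in H3.3K27M cells. Before the cluster of Foxf1, Foxc2 and Foxl1 a shared domain of 17599 bp in H3.1K27M cells and 21599 bp in H3.3K27M cells lay 130 kb from the window in each list. After the cluster of Foxq1, Foxf2 and Foxc1 the next peak lay 8845 kb from the window in the H3.1K27M list and 4109 kb in the H3.3K27M list. The neighbours of the Foxd1 peak in the H3.3K27M list lay 1236 kb before and 2150 kb after its window, and the first of these also had no H3.1K27M partner.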
